A study of Mus musculus with 12 samples.

Results

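The G1 cyclins, kinases and Cdk inhibitors were followed in organoids of mouse colon, which are cultures of crypt epithelium in matrigel. The 10 genes were Ccnd1, Ccnd2, Ccnd3, Cdk4, Cdk6, Cdkn1a, Cdkn1b, Cdkn1c, Cdkn2b and Cdkn2c. They were taken by symbol from the core of the G1 machinery, not by a measured value, but with earlier results of these data known. All 10 were matched by Ensembl identifier among the 48795 genes of the table. All 10 also passed the filter on low counts, together with 14856 genes in all. Total RNA was sequenced in 12 libraries of C57BL/6 background, 3 in each of 4 groups. KO differentiated organoids, from AhR-deficient (AhR-/-) mice, and WT differentiated organoids, from wild type mice, were kept for 3 days in medium without Wnt-3A. KO stem and WT stem organoids, of the same 2 genotypes, were kept in WENR medium, which holds Wnt-3A, Noggin, R-spondin-1 and EGF. Age, sex, the AhR allele and the number of mice behind each group are not given in the sources used here. No label ties the 3 libraries in a group to separate mice or cultures, so the tests measure the spread between libraries, which may be technical.

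D-type cyclins bind Cdk4 and Cdk6, and the complexes phosphorylate the retinoblastoma protein, which frees E2F factors to switch on the genes of S phase. Inhibitors of the INK4 family, such as Cdkn2b and Cdkn2c, bind Cdk4 and Cdk6 alone, whereas those of the Cip/Kip family, Cdkn1a, Cdkn1b and Cdkn1c, act on a wider range of cyclin-Cdk complexes. In the intestinal crypt, Wnt signals maintain cycling cells, and cells leave the cycle as they differentiate.

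The labels and the libraries were checked first, on normalized counts, which are read counts scaled to a common size for all libraries. A library held 25.1 to 99.0 M reads as recovered from the table, and its normalized counts summed to 52.6 to 57.7 M. Cyp1b1, a direct AhR target, had 12.95 to 20.6 normalized counts in KO differentiated libraries, against 574 to 679.6 in WT differentiated libraries, and 269 to 571 in KO stem libraries, against 7479 to 8502 in WT stem libraries. Ahr itself was higher in KO (log2 differences 0.63 differentiated and 0.57 stem, both called), and, since the deleted part is not given, this count does not check the deletion. All 8 epithelial markers were found in every library. The 12 fibroblast and muscle markers summed to 54.3 to 644 normalized counts in 11 libraries and to 22290 in WT stem library 1, with Vim at 13196 and Lum at 0 in every library. KO stem library 3 held the 644, and the 8 immune, blood and endothelial markers summed to at most 52.2. The 10 absorptive colonocyte markers summed to 33842 to 84168 in KO differentiated libraries, against 194118 to 262452 in WT differentiated libraries. Of 9 intestinal stem cell markers tested, 8 were called higher and 1 lower in KO than in WT differentiated organoids (median log2 difference 0.70). All 10 listed summed to 172318 to 177297 in KO differentiated libraries, against 183564 to 187730 in WT differentiated libraries. Of the 8 epithelial markers, 5 were called lower and 0 higher in KO differentiated organoids (median -0.35). Of all genes tested, 27.6% were called there. The part of these cell types in the G1 values was not tested. In these bulk samples, fewer cells of a type and less RNA per cell cannot be told apart.

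After withdrawal, Cdkn1a, Cdkn1b, Cdkn1c and Cdkn2b rose and Ccnd3 and Cdkn2c fell in both genotypes, whereas Cdk4 and Cdk6 fell in WT organoids without a call in KO. Between differentiated organoids, Cdk4 and Ccnd2 were higher and Cdkn1c was lower in KO. In limma, with a Benjamini-Hochberg adjusted p under 0.05 over all genes tested, 6 of the 10 were called in KO (4 higher and 2 lower in differentiated organoids) and 8 in WT (4 higher and 4 lower). The shares of all tested genes called were 67.7% in KO (34.1% higher, 33.6% lower) and 72.2% in WT (36.3% higher, 35.9% lower). KO against WT gave 3 of the 10 in differentiated organoids (2 higher, 1 lower), beside 27.6% of all genes (13.8% higher, 13.9% lower). In stem organoids it gave 1 of the 10 (lower), beside 6.57% of all genes (3.48% higher, 3.09% lower). The response to withdrawal differed between genotypes for 2 of the 10 (1 higher, 1 lower in KO), beside 8.70% of all genes (5.12% higher, 3.58% lower). Median log2 differences of the 10 were 0.17 for KO over WT differentiated, 0.028 for KO over WT stem, 0.078 for differentiated over stem in KO and -0.23 in WT, against 0.024, -0.040, 0.013 and 0.013 over all genes tested.

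**Figure D1:**
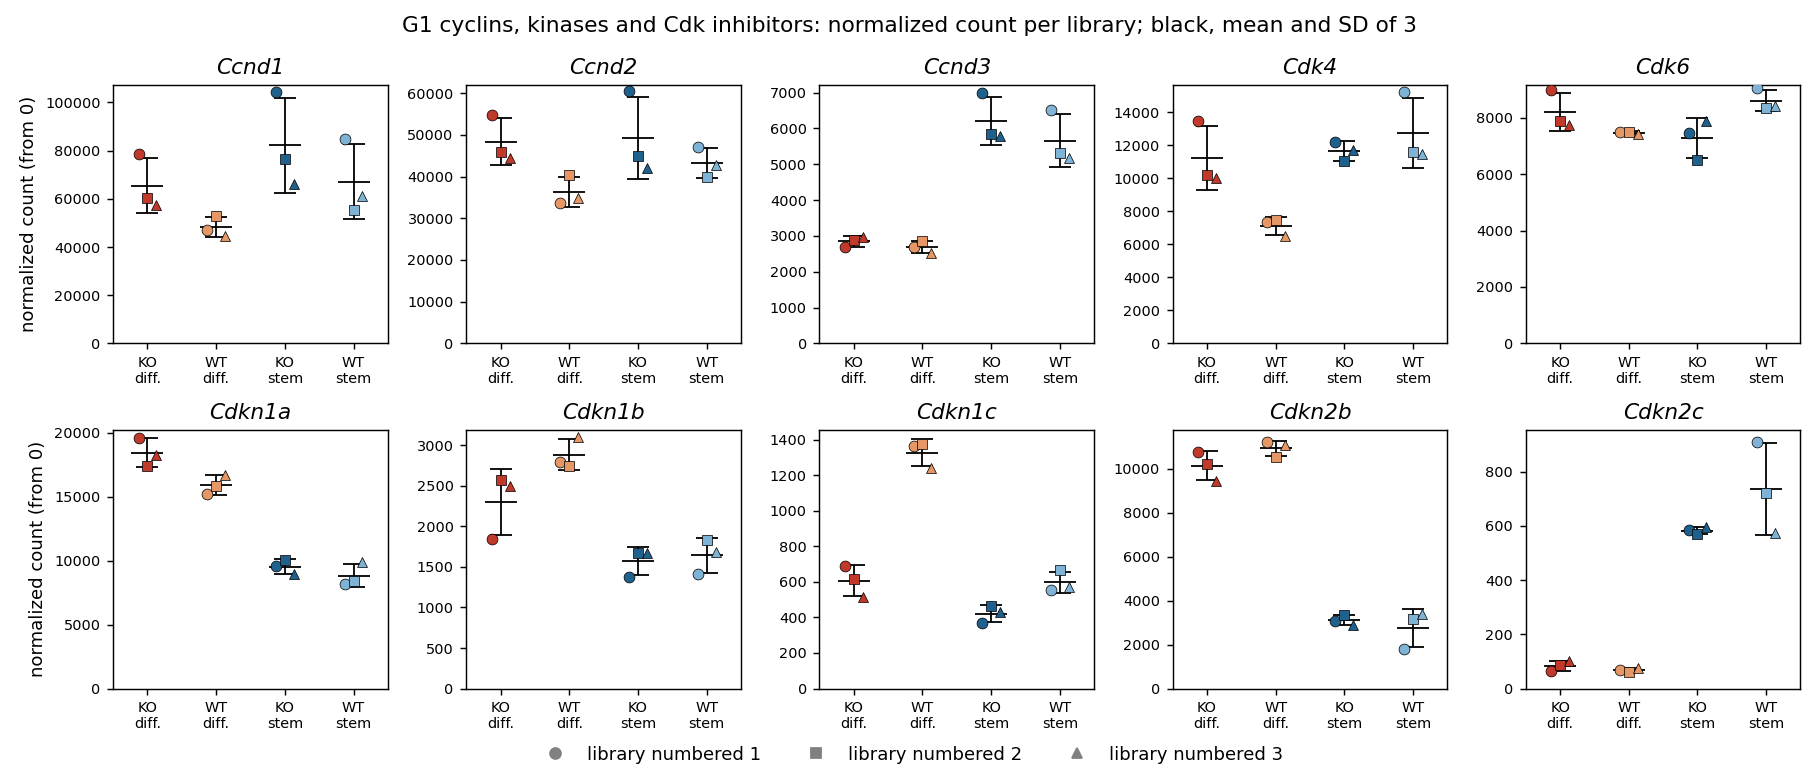
Normalized counts of the 10 genes in each of the 12 libraries, on linear axes from 0; the groups run from KO differentiated, WT differentiated and KO stem to WT stem, symbols give the library number, and black bars give the mean and SD of 3 libraries. The 3 KO differentiated libraries of Cdk4 sit between 10023 and 13445, all above the WT differentiated ones, and those of Cdkn1c sit between 516 and 689, all below the WT differentiated ones.

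Among the D-type cyclins, Ccnd1 (ENSMUSG00000070348, chr7:144929931-144939925, minus strand, in GRCm38), the cyclin best known as a target of Wnt and growth factor signals, had 78481, 60455 and 57545 normalized counts in KO differentiated libraries 1 to 3, against 47222, 53073 and 44692 in WT differentiated libraries. It had 104265, 76425 and 66152 in KO stem libraries, against 84796, 55327 and 61351 in WT stem libraries. The KO differentiated libraries all lay above the WT differentiated ones, the stem libraries of both genotypes overlapped, and library 1 was the highest in 3 of the 4 groups. The log2 difference of KO over WT was 0.43 ± 0.19 (SE) in differentiated organoids (limma adjusted p = 0.117) and 0.29 ± 0.19 in stem organoids (adjusted p = 0.373), and neither was called. The differentiated difference was called with the library number as a block over all groups (limma adjusted p = 0.0299) and without WT stem library 1 and KO stem library 3 (0.0412). That block pairs KO with WT libraries, yet same-numbered differentiated ones did not deviate together from their group means (Pearson's r = -0.010, -0.051 and 0.084). Differentiated over stem, the log2 difference of Ccnd1 was -0.32 ± 0.19 in KO (adjusted p = 0.163) and -0.45 ± 0.19 in WT (adjusted p = 0.0506). The WT value was past the threshold in 7 of 12 planned repeats of the fit with all libraries kept and without KO stem library 1 (0.0289) or 3 (0.0417), KO differentiated library 1 (0.0413) or WT stem library 2 (0.0265). The KO value was past it without WT stem library 1 and KO stem library 3 together (-0.46, adjusted p = 0.0271) and without the 4 libraries numbered 1 (-0.27, 0.0465). The difference between the 2 responses was 0.14 ± 0.27 (adjusted p = 0.778). LTO1, on the opposite strand, shares 1100 exon bases with Ccnd1, which is 23.4% of them. It had 507 to 1299 normalized counts over the 12 libraries and rose by 0.88 in KO and 1.23 in WT on the log2 scale on withdrawal, opposite in sign to Ccnd1. Strand use in the counting is not stated.

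Ccnd2 (ENSMUSG00000000184, chr6:127125162-127152193, minus strand), a second D-type cyclin with wide roles in tissue growth, had 54806, 45762 and 44445 normalized counts in KO differentiated libraries, against 33722, 40274 and 34799.7 in WT differentiated libraries. In stem organoids it had 60555, 45025 and 42151 in KO libraries, against 47145, 39816 and 42790.0 in WT libraries. Differentiated KO libraries all lay above differentiated WT ones, and KO stem and WT stem libraries overlapped. The gene was 1.33-fold as high in KO differentiated as in WT differentiated organoids (log2 difference 0.41 ± 0.14, limma adjusted p = 0.0427). This call was lost when KO differentiated library 1 (0.32, adjusted p = 0.161), KO differentiated library 2 (0.0655), WT differentiated library 1 (0.130) or 3 (0.126), KO stem library 2 (0.0534) or WT stem library 3 (0.0546) was left out, and without the filter (0.0692). No other comparison called Ccnd2, with log2 differences of 0.17 ± 0.14 for KO over WT stem, -0.015 ± 0.14 for differentiated over stem in KO and -0.26 ± 0.14 in WT. The WT withdrawal difference was called with the block within genotype (adjusted p = 0.0452), with the groups compared alone (0.0473) and without KO stem library 1 (0.0425).

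Ccnd3 (ENSMUSG00000034165, chr17:47505051-47599691, plus strand), the D-type cyclin often linked to maturing cells, was the member of its family that moved most on withdrawal. It had 2682, 2873 and 2981 normalized counts in KO differentiated libraries, against 6989.8, 5849 and 5802 in KO stem libraries. In WT it had 2685, 2863 and 2523 in differentiated libraries, against 6500.2, 5307 and 5174 in stem libraries. Differentiated libraries lay well below stem libraries in both genotypes, with no overlap. The differentiated level was 0.458 of the stem level in KO (log2 difference -1.12 ± 0.099, limma adjusted p = 1.55e-06) and 0.475 in WT (-1.07 ± 0.099, adjusted p = 1.65e-06), and the 2 responses differed by -0.056 ± 0.14 (adjusted p = 0.833). KO and WT libraries overlapped in both conditions, with log2 differences of 0.081 ± 0.099 differentiated and 0.14 ± 0.099 stem, neither called. Bysl, on the opposite strand, shares 4.11% of the exon bases of Ccnd3. It had 879 to 3401 normalized counts, and also fell in both genotypes, with log2 differences of -0.71 in KO and -1.33 in WT.

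Of the kinases, Cdk4 (ENSMUSG00000006728, chr10:127063534-127067920, plus strand), the main catalytic partner of the D-type cyclins in many cell types, was higher in KO after withdrawal. It had 13445, 10227 and 10023 normalized counts in KO differentiated libraries, against 7378, 7464 and 6517 in WT differentiated libraries. In stem organoids it had 12224, 11064 and 11685 in KO libraries, against 15219, 11563 and 11445 in WT libraries. WT differentiated libraries were the lowest of the 12, all others overlapped, and WT stem library 1 was the highest. Cdk4 was 1.58-fold as high in KO differentiated as in WT differentiated organoids, at 11232 ± 1919.9 against 7119 ± 524 (SD, n = 3 each; log2 difference 0.65 ± 0.13, limma adjusted p = 0.00507). The call was kept in all 12 fits with 1 library left out, where the difference ranged between 0.51 and 0.72 and the highest adjusted p was 0.0265. KO differentiated library 1, the highest of its group in Cdk4, also had the lowest colonocyte marker sum (33842), and without it the difference was 0.51 (adjusted p = 0.0153). In stem organoids the difference was -0.12 ± 0.13 (adjusted p = 0.613). Withdrawal lowered Cdk4 to 0.559 of its stem level in WT (-0.83 ± 0.13, adjusted p = 0.000114), whereas the KO difference was -0.066 ± 0.13 (adjusted p = 0.667) and, without the 4 libraries numbered 1, -0.17 (adjusted p = 0.0474).

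The 2 responses of Cdk4 differed by 0.76 ± 0.18 on the log2 scale (limma adjusted p = 0.0301), with KO differentiated libraries inside the stem range or close below it. The difference ranged between 0.63 and 0.84 with each library left out. It was no longer called without KO stem library 1 (0.80, adjusted p = 0.0587), 2 (0.73, 0.0722) or 3 (0.77, 0.0569) or without WT differentiated library 1 (0.79, 0.0587) or 3 (0.70, 0.0817). Tspan31, on the opposite strand, shares 19.7% of the exon bases of Cdk4 and had 4388 to 7558 normalized counts. It fell on withdrawal in KO (-0.72 ± 0.044) and in WT (-0.56 ± 0.044), and its difference of KO over WT was 0.043 ± 0.044 differentiated (adjusted p = 0.492) and 0.20 ± 0.044 stem, where it was called (adjusted p = 0.0212).

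The promoter of Cdk4 is shown because it carries 4 copies of the E-box bound by Myc and Max, and Cdk4 was the kinase that differed between genotypes. The RefSeq window of 300 bases (GRCm38.p6, chr10:127063285-127063584, plus strand) runs from 250 bases before the start site to 50 after it. Capitals mark the 4 matches to CACGTG, which begin 172, 118, 98 and 11 bases before the start, and a single TCAAAG, the reverse complement of the TCF core CTTTGA, 51 bases before it.
Cdk4 promoter: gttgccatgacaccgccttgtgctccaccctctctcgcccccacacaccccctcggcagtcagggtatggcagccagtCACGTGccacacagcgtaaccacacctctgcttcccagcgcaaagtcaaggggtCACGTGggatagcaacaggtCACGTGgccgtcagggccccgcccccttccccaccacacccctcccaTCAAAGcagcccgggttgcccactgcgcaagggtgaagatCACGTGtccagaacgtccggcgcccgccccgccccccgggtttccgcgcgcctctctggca
At least 1 CACGTG, searched like CTTTGA on both strands, stood in 7.15% of the 32851 mouse promoters of that table, 4 or more in 8 promoters (0.0244%), and the TCF core on either strand in 16.0%. Myc, named here after its values were seen, had 9776 to 11612 normalized counts in KO differentiated libraries, against 7799.9 to 9474 in WT differentiated libraries, a log2 difference of 0.27 ± 0.12 (limma adjusted p = 0.103), and fell on withdrawal, with log2 differences of -0.45 in KO and -0.66 in WT. A match is a run of letters and no sign that a factor was bound.

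Cdk6 (ENSMUSG00000040274, chr5:3341485-3531008, plus strand), the second kinase of the D-type cyclins, had 8987, 7869 and 7735 normalized counts in KO differentiated libraries, against 7482, 7503 and 7418 in WT differentiated libraries. In stem organoids it had 7468, 6505 and 7885 in KO libraries, against 9032, 8356 and 8411 in WT libraries. KO libraries lay above WT libraries after withdrawal and below them in stem medium, in each case without overlap. The log2 differences of KO over WT were 0.13 ± 0.078 differentiated (limma adjusted p = 0.228) and -0.24 ± 0.078 stem (adjusted p = 0.0854), and neither passed the threshold, although the stem difference did by DESeq2 on recovered reads (0.0411) and without KO differentiated library 1 (0.0496). Cdk6 fell on withdrawal in WT (log2 difference -0.20 ± 0.078, adjusted p = 0.0339), while in KO the difference was 0.17 ± 0.078 (adjusted p = 0.0694), and the 2 responses differed by 0.37 ± 0.11 (adjusted p = 0.0570). The difference between responses was called with the block over all groups (adjusted p = 0.0333), DESeq2 (0.0174), quantile normalization (0.0498) and without KO stem library 3 (0.43, 0.0488), and the KO withdrawal difference with that block (0.0450), without KO stem library 3 (0.23, 0.0292) and without it and WT stem library 1 (0.0212). The WT call was lost without the filter (0.0560), without WT stem library 1 (-0.17, adjusted p = 0.0929) or 3 (0.0508), and without WT differentiated library 1 (0.0706), 2 (0.0677) or 3 (0.0776).

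Cdkn1a (ENSMUSG00000023067, chr17:29090976-29100727, plus strand), which encodes p21, the Cip/Kip inhibitor best known as a p53 target, rose on withdrawal in both genotypes. It had 19633, 17442 and 18293 normalized counts in KO differentiated libraries, against 9569, 10090.1 and 8950.5 in KO stem libraries. In WT it had 15200.4, 15857 and 16706 in differentiated libraries, against 8186, 8433 and 9874 in stem libraries. All differentiated libraries exceeded all stem libraries. The rise was 1.94-fold in KO (log2 0.95 ± 0.079, limma adjusted p = 9.77e-07) and 1.80-fold in WT (0.85 ± 0.079, adjusted p = 1.65e-06), a difference of 0.098 ± 0.11 (adjusted p = 0.610). KO differentiated libraries also lay above WT differentiated ones without overlap, by 0.21 ± 0.079 on the log2 scale, which missed the threshold (adjusted p = 0.0672) and passed it with quantile normalization (0.35, adjusted p = 0.0117), with DESeq2 on recovered reads (0.0442), with only the groups compared (0.0442), and without WT stem library 1 (0.0416), WT stem library 3 (0.0366) or WT stem library 1 and KO stem library 3 (0.0406). In stem organoids KO and WT overlapped (0.11 ± 0.079, adjusted p = 0.401).

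The upstream of 2 RefSeq promoters of Cdkn1a is shown because it holds a p53 response element, made of 2 decamers. The window lies at chr17:29090729-29091028 (GRCm38.p6, plus strand), and capitals mark the 20-base element, which begins 51 bases before that start site.
Cdkn1a upstream promoter: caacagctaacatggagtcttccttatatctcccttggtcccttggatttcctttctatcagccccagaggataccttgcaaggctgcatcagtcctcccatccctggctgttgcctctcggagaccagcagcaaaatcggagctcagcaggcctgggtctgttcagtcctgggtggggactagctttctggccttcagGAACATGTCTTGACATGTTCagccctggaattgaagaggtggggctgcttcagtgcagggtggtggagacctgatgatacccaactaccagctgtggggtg
An element of 2 adjacent decamers with at most 1 mismatch, and none at the central C and G of each decamer, stood in 22 of the 32851 promoters (0.0670%). The search was added after this promoter had been read.

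Cdkn1b (ENSMUSG00000003031, chr6:134920401-134925513, plus strand), which encodes p27, an inhibitor that accumulates in resting cells and is regulated largely through protein turnover, also rose on withdrawal. It had 1838, 2576 and 2495 normalized counts in KO differentiated libraries, against 1379, 1669 and 1671 in KO stem libraries. In WT it had 2795, 2748 and 3100.4 in differentiated libraries, against 1407, 1831 and 1686 in stem libraries. Neither genotype showed overlap between conditions, although KO differentiated library 1 came close to the KO stem libraries. The log2 rise was 0.54 ± 0.14 in KO (limma adjusted p = 0.00451) and 0.82 ± 0.14 in WT (adjusted p = 0.000217). KO differentiated libraries were all below WT differentiated ones, with a log2 difference of -0.34 ± 0.14 that was not called (limma adjusted p = 0.0900). The exception was the block over all groups (adjusted p = 0.0152), which pairs KO with WT libraries by numbers not known to pair them. Stem libraries overlapped (-0.058 ± 0.14). The 2 responses differed by -0.28 ± 0.19 (adjusted p = 0.384).

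Cdkn1c (ENSMUSG00000037664, chr7:143458339-143461050, minus strand), an imprinted gene that encodes p57 and is expressed from the maternal allele, had the largest genotype difference of the 10 after withdrawal. It had 689, 614 and 516 normalized counts in KO differentiated libraries, against 1363, 1376 and 1240.2 in WT differentiated libraries. In stem organoids it had 371, 465 and 429 in KO libraries, against 556, 666 and 570.1 in WT libraries. KO libraries were below WT libraries in both conditions without overlap, and the KO differentiated level was close to the WT stem level. In differentiated organoids KO reached 0.457 of the WT level, 606 ± 86.6 against 1326 ± 75.0 (SD, n = 3 each; log2 difference -1.14 ± 0.12, limma adjusted p = 0.000277). With each library left out, this difference ranged between -1.23 and -1.03 and stayed called 12 of 12 times.

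In stem organoids the log2 difference of Cdkn1c was -0.50 ± 0.12 (limma adjusted p = 0.0342). This call was not kept by edgeR on recovered reads (adjusted p = 0.0590), with only the groups compared (0.111), or when KO stem library 1 (-0.42, adjusted p = 0.139), 2 (0.0538) or 3 (0.0624), WT stem library 2 (-0.42, 0.108) or 3 (0.0566), KO differentiated library 2 (0.0537) or WT differentiated library 1 (0.0552) or 2 (0.0528) was left out. Withdrawal raised Cdkn1c 1.44-fold in KO (log2 0.52 ± 0.12, adjusted p = 0.00274) and 2.22-fold in WT (1.15 ± 0.12, adjusted p = 5.14e-06). The difference between the 2 responses, KO minus WT, was -0.63 ± 0.17 (adjusted p = 0.0462), and it was called in 2 of 12 fits with 1 library left out, those without KO differentiated library 1 and WT stem library 2. In the other 10 (adjusted p 0.0527 to 0.108) it ranged between -0.72 without KO stem library 1 and -0.52 without KO differentiated library 3. It was also not called with the library number as a block within genotype (adjusted p = 0.0621). Gm44732, an antisense gene that shares 30.7% of the exon bases of Cdkn1c, had 0 to 8.39 normalized counts.

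**Figure D2:**
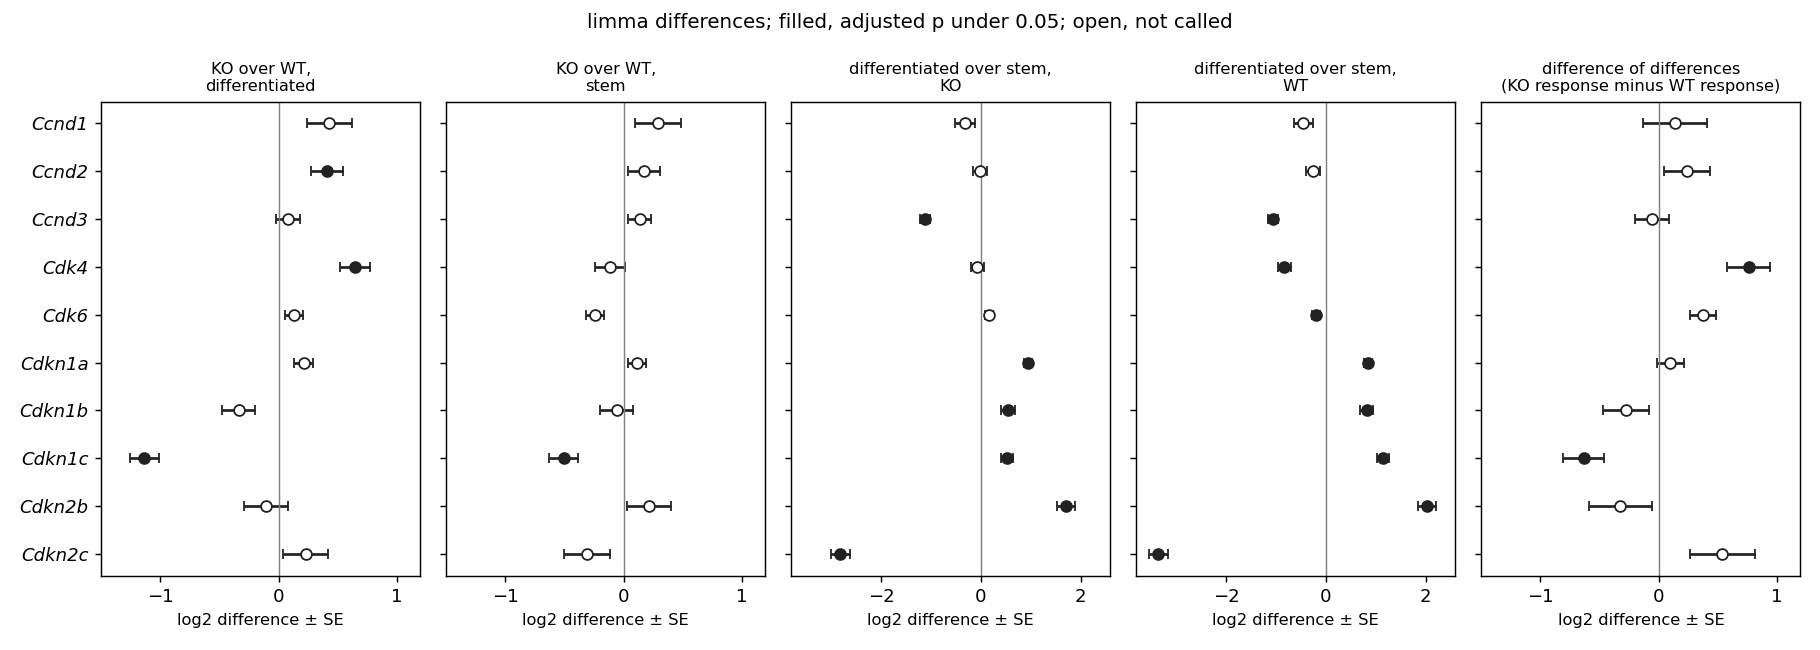
log2 differences with SE from limma for the 10 genes in the 4 comparisons and in the difference between the 2 responses to withdrawal; filled points had an adjusted p under 0.05 and open points did not, and the axes of the 2 withdrawal panels are wider. Cdkn2b and Cdkn2c moved furthest on withdrawal, at 1.71 and -2.82 in KO and 2.03 and -3.36 in WT, and Cdk4 and Cdkn1c were the 2 genes called in the last panel.

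The INK4 inhibitors moved in opposite directions. Cdkn2b (ENSMUSG00000073802, chr4:89306299-89311039, minus strand), which encodes p15, known for its induction by TGF-beta and its repression by Myc, had 10746, 10232 and 9447 normalized counts in KO differentiated libraries, against 3072, 3349 and 2886 in KO stem libraries. In WT it had 11192, 10512 and 11052 in differentiated libraries, against 1784, 3148 and 3383 in stem libraries. Every differentiated library was far above every stem library, and WT stem library 1 was the lowest of all. The rise was 3.27-fold in KO (log2 1.71 ± 0.19, limma adjusted p = 8.29e-06) and 3.94-fold in WT (2.03 ± 0.19, adjusted p = 1.42e-06). Without WT stem library 1 the WT rise was, on the log2 scale, 1.74. KO and WT overlapped in both conditions (-0.11 ± 0.19 differentiated, 0.21 ± 0.19 stem), and the 2 responses differed by -0.32 ± 0.26 (adjusted p = 0.459).

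Cdkn2c (ENSMUSG00000028551, chr4:109660876-109667189, minus strand), which encodes p18, fell furthest of the 10. It had 63.2, 85.5 and 101 normalized counts in KO differentiated libraries, from 80 to 148 recovered reads, against 584, 569 and 595 in KO stem libraries. In WT it had 70.2, 62.1 and 77.2 in differentiated libraries, from 34 to 92 recovered reads, against 911, 722 and 572 in stem libraries. No differentiated library came near a stem library. The differentiated level was 0.143 of the stem level in KO (log2 -2.82 ± 0.19, limma adjusted p = 2.11e-07) and 0.0950 in WT (-3.36 ± 0.19, adjusted p = 3.30e-08), and the difference of the 2 was 0.54 ± 0.27 (adjusted p = 0.228). KO and WT overlapped in both conditions (0.23 ± 0.19 differentiated, -0.31 ± 0.19 stem). All 12 withdrawal differences of Ccnd3, Cdkn1a, Cdkn1b, Cdkn1c, Cdkn2b and Cdkn2c kept their sign and their call in all 312 repeats of the fit under other settings or with libraries left out.

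The promoter of Cdkn2b and the upstream of 2 RefSeq promoters of Cdkn2c are shown because each holds the core GCGTG. That core is bound by AhR and its partner ARNT. The 2 transcripts moved in opposite directions on withdrawal, and neither was called between KO and WT in either condition. Capitals mark GCGTG, which begins 9 bases before the start of Cdkn2b (chr4:89310983-89311282, minus strand) and 44 bases before that of Cdkn2c (chr4:109666707-109667006, minus strand). In Cdkn2c they also mark TTCCCGC, a core bound by E2F, 25 bases before the start. The other Cdkn2c window (chr4:109665323-109665622) held neither GCGTG nor TTCCCGC.
Cdkn2b promoter: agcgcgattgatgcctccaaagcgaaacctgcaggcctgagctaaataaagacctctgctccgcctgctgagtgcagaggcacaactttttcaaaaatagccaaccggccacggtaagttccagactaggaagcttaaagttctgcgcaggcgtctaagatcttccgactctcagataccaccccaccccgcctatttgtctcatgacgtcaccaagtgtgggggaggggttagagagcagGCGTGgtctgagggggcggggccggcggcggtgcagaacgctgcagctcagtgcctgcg
Cdkn2c upstream promoter: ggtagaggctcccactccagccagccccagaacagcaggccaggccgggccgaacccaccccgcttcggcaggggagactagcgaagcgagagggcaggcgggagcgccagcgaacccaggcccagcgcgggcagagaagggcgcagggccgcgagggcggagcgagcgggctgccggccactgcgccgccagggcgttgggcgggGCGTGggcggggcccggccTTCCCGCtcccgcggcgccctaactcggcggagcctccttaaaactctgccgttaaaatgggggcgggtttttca
GCGTG and TTCCCGC were searched on both strands. GCGTG stood in 32.4% of all promoters and in 6 of the 10 promoters found for 7 of the 10 genes, those of Cdk6, Cdkn1b and Cdkn2b and 1 of 2 each of Ccnd3, Cdkn1a and Cdkn2c. TTCCCGC stood in 4.60% of all promoters and, among these 10, in the upstream one of Cdkn2c alone. Ccnd1, Ccnd2 and Cdkn1c had no entry. As for Cdk4, a match is no sign that a factor was bound.

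Levels were compared between genes per kb of exon, as normalized count per kb. The length was that of all annotated exons of a gene joined, such as 8.775 kb for Ccnd3 and 1.39 kb for Cdkn2b. Which transcripts were in use was not determined, and a gene with exons outside them reads too low here. The order between genes is therefore approximate. Ccnd1 was the highest of the 10 in every group, at 13908 in KO differentiated, 10263 in WT differentiated, 17473 in KO stem and 14262 in WT stem organoids, and its libraries did not overlap those of the next gene. After withdrawal the order ran Ccnd1, Cdkn2b, Cdkn1a, Ccnd2 and Cdk4 in both genotypes, and Cdkn1a (4909 to 5526 in KO, 4278 to 4702 in WT) and Ccnd2 (4724 to 5825 in KO, 3584 to 4280.3 in WT) overlapped. In stem medium it ran Ccnd1, Ccnd2, Cdk4, Cdkn1a and Cdkn2b in both genotypes, where Cdkn2b had 2076 to 2409.7 in KO and 1283 to 2434 in WT. In WT stem organoids Ccnd2 and Cdk4, and Cdkn1a and Cdkn2b, overlapped as neighbours, and in KO stem organoids they did not. The lowest gene was Cdkn2c after withdrawal, at 31.0 in KO and 26.0 in WT, while in stem organoids it overlapped Cdkn1c at the lower end, with 217 for Cdkn2c and 207 for Cdkn1c in KO and 274 for Cdkn2c and 293 for Cdkn1c in WT. Cdkn1c stood sixth in WT differentiated organoids, overlapping Cdkn1b, and ninth in KO differentiated organoids, overlapping Ccnd3.

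**Figure D3:**
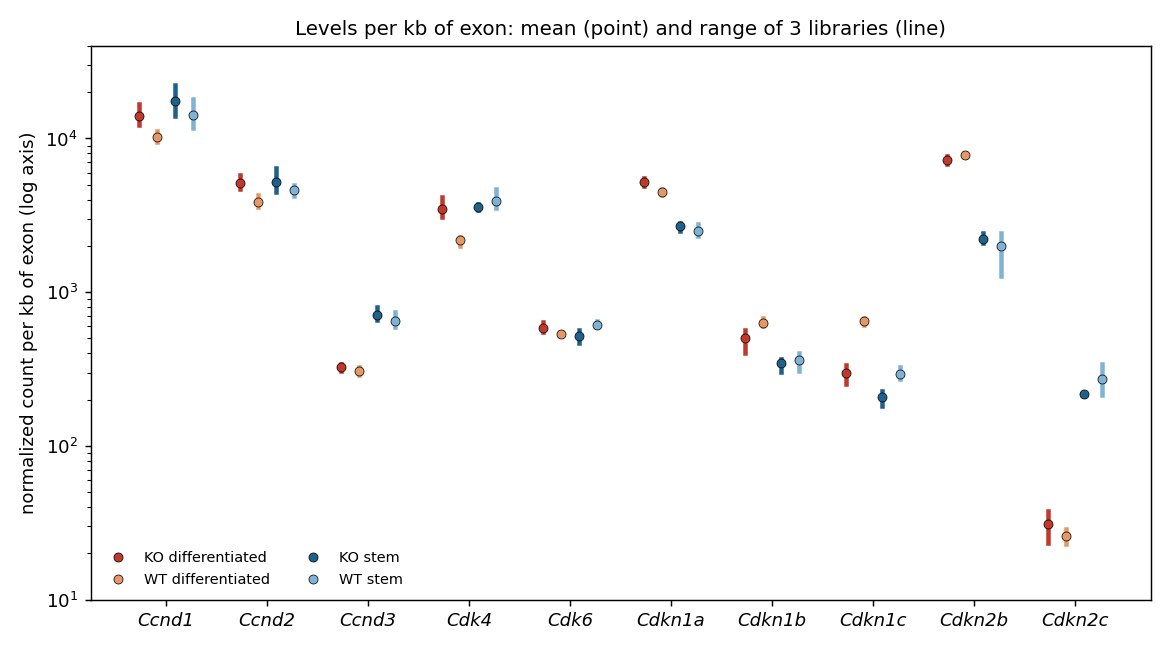
Normalized count per kb of exon on a log axis for the 10 genes in the 4 groups; points are means and lines the range of 3 libraries. Ccnd1 is highest throughout, Cdkn2b lies at 7296 in KO differentiated and 7855 in WT differentiated organoids against 2232 in KO stem and 1994 in WT stem organoids, and Cdkn2c drops the other way.

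Shares within each family were set by the most abundant member. Ccnd1 made up 71.7% ± 1.27 of the summed D-type cyclin level per kb in KO differentiated organoids (SD, n = 3), 71.2% ± 0.827 in WT differentiated, 74.5% ± 1.13 in KO stem and 72.8% ± 2.64 in WT stem organoids. Ccnd3 made up at most 3.65% in any library. The cyclin sum was 19369.9 ± 2991 in KO differentiated and 14424 ± 1278 in WT differentiated organoids, against 23415 ± 5309 in KO stem and 19503 ± 3769 in WT stem organoids. The sum of the 5 inhibitors was 13325 ± 634 in KO differentiated and 13646 ± 322 in WT differentiated organoids, against 5685 ± 338 in KO stem and 5407 ± 809 in WT stem organoids. Differentiated and stem libraries did not overlap in the inhibitor sum, and those of KO and WT did in both conditions. Among the Cip/Kip genes, Cdkn1c made up 4.25% to 5.39% in KO differentiated libraries, against 10.2% to 12.02% in WT differentiated libraries, while Cdkn1a made up 85.0% to 88.2% in KO against 76.9% to 78.5% in WT. Cdkn2c was 0.304% to 0.550% of the INK4 pair in KO differentiated and 0.305% to 0.360% in WT differentiated libraries, against 8.08% to 9.65% in KO stem and 8.05% to 20.9% in WT stem libraries. These shares and sums were not tested, and they rest on the same exon lengths as the levels per kb. They hold only members of the 10 genes and so leave out other inhibitor genes, among them Cdkn2a. The inhibitor and INK4 values are thus those of a partial set. Cdkn2a, an INK4 gene described with the partners below, was called higher in KO than in WT in both conditions.

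Over the 12 libraries, which fall into 4 groups and differ in depth and genotype, Pearson's r of log2 levels was computed between the 10 genes as a description. It was 0.91 between Ccnd1 and Ccnd2, 0.81 between Ccnd1 and Cdk4, 0.97 between Ccnd3 and Cdkn2c and -0.97 between Ccnd3 and Cdkn2b. Each was also compared with 11279 protein-coding genes with a mean of at least 50. The one most like Cdkn2c was Mybl2 (r = 0.998), and the 3 most like Cdkn2b were Eml2, Hbp1 and Plin3 (0.99 to 0.998). Those most like Cdk4 were Rcc2, Dhx30 and Tssc4 (0.98 to 0.99), those most like Cdkn1c were Zfp37, Ret and Galns (0.95 to 0.97), and those most like Cdkn1a were Ctla2b, Ube2b and Dhx57 (0.99). For Cdkn1b they were Snx9, Polm and Ppp1cb (0.98 to 0.99), for Ccnd3 Mpv17l2, Entpd6 and G6pdx (0.99 to 0.997), for Ccnd1 Ehd4, Pomk and Prkar1a (0.96 to 0.98), for Ccnd2 Crip2, Mfsd1 and Notch3 (0.92 to 0.95) and for Cdk6 Polr3a, Atf2 and Ylpm1 (0.88 to 0.91).

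The partners that act with or after the 10 genes, 24 genes from cyclin E and Cdk2 to the Rb and E2F families, mostly fell on withdrawal. In KO 18 fell and 2 rose, with a median log2 difference of -0.92, and in WT 16 fell and 1 rose, with a median of -1.14, beside 67.7% of all genes called in KO and 72.2% in WT. Ccna2, the cyclin of S phase, led with log2 differences of -3.66 in KO and -4.66 in WT. The repressors E2f8 (-3.40 in KO, -4.11 in WT) and E2f7 (-2.77 in KO, -3.47 in WT) and the cyclin E gene Ccne2 (-3.07 in KO, -3.53 in WT) followed. The exception called higher in both genotypes was Cdkn2a, which encodes the INK4 inhibitor p16 and the p53 activator Arf, at 1.14 in KO and 1.13 in WT, and Tfdp2 was called higher in KO alone. Cdkn2a was also higher in KO than in WT, with 6761 to 10149.7 normalized counts in KO differentiated libraries, against 4610.1 to 4874 in WT differentiated libraries (log2 difference 0.70 ± 0.18, limma adjusted p = 0.0138). In stem organoids it had 2995 to 4647 in KO libraries, against 2025 to 2373 in WT libraries (0.70 ± 0.18, adjusted p = 0.0381). A gene count does not separate p16 from Arf.

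Between KO and WT differentiated organoids, 5 of the 24 partners were higher and 4 were lower (median 0.12), beside 27.6% of all genes called, with E2f2 at -1.01 ± 0.30, Cdkn2a at 0.70, Ccna2 at 0.61 ± 0.18 and Rbl1, an Rb relative, at -0.57 ± 0.11. The count of 9 became 15 without WT stem library 1 and 5 without WT differentiated library 1 or 3. In stem organoids Cdkn2a was called higher and Tfdp2 lower (-0.31 ± 0.082), a count of 2 that became 5 without KO differentiated library 1 and 0 or 1 without any 1 of the other 11 libraries except KO stem library 3. Of all genes tested, 6.57% were called in stem organoids (3.48% higher, 3.09% lower). The response to withdrawal was less negative in KO for Ccna2 (1.001 ± 0.25), Cks1b, a Cdk-binding subunit (0.70 ± 0.17), and E2f1 (0.56 ± 0.14). These 3 calls became 0 or 1 when KO stem library 1, 2 or 3, KO differentiated library 2 or 3, or WT differentiated library 1, 2 or 3 was left out. The response differed for 8.7% of all genes (5.12% higher, 3.58% lower in KO).

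Regulators of the 10 genes, 25 in all, went both ways. Between KO and WT differentiated organoids 4 were higher and 3 lower, with a median of 0.0085, and this count of 7 of 25 was close to the 27.6% of all genes called. Tgfb3, a TGF-beta ligand, had 128 to 178 normalized counts in KO differentiated libraries, against 16.7 to 27.3 in WT differentiated libraries (2.68 ± 0.25), and Tgfb2 had 53.5 to 78.5 in KO differentiated against 15.5 to 22.7 in WT differentiated libraries (1.62 ± 0.26). Klf4, a factor of differentiating epithelium that induces Cdkn1a, was lower in KO (-1.15 ± 0.30), as was Bmi1, a Polycomb repressor of Cdkn2a (-0.60 ± 0.066). In stem organoids Tgfb2 (1.53 ± 0.26) and Tgfb3 (1.51 ± 0.25) were higher and Bmi1 was lower (-0.54 ± 0.066), beside 6.57% of all genes called (3.48% higher, 3.09% lower). The count of 3 stem calls was 6 without KO differentiated library 1 and 5 without WT stem library 1, and the count of 7 differentiated calls was 11 without WT stem library 1 and 4 without KO differentiated library 1 or WT differentiated library 1 or 3.

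On withdrawal 14 of the 25 regulators rose and 5 fell in KO, and 12 rose and 5 fell in WT (median log2 difference 0.30 in KO and 0.21 in WT). The totals called were near those of all genes (67.7% called in KO, 72.2% in WT). By direction, 34.1% of all genes were higher and 33.6% lower in KO, and 36.3% and 35.9% in WT. More of the listed regulators thus rose than fell. The list was drawn up with earlier results of these data known, and it was not tested as a set. Smad7, an inhibitor induced by TGF-beta, rose by 2.17 in KO and 2.40 in WT. Skp2, the ubiquitin ligase subunit that marks p27 for degradation, fell (-2.43 in KO, -3.03 in WT). Tgfb3 also fell (-2.01 in KO, -3.18 in WT), while Tgfb1 rose by 1.43 in KO and 0.92 in WT, and Smad3, a TGF-beta signal transducer, rose by 1.04 in KO and 1.11 in WT. Tgfb1 was the only regulator whose response differed between genotypes (0.51 ± 0.14, limma adjusted p = 0.0463), a call lost without any 1 of KO stem libraries 1, 2 and 3, KO differentiated libraries 1 and 2, WT stem library 1 and WT differentiated libraries 1, 2 and 3. The response differed for 8.7% of all genes.

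Target genes of p53, 22 apart from Cdkn1a, were mostly higher in KO after withdrawal. In differentiated organoids 13 were higher and 1, Perp, was lower in KO, with a median log2 difference of 0.46 against 0.024 over all genes, of which 13.8% were called higher and 13.9% lower. Phlda3, an inhibitor of Akt signalling, had 7896 to 10904 normalized counts in KO differentiated libraries, against 3884 to 4313 in WT differentiated libraries (1.12 ± 0.13), and Psrc1 (0.83 ± 0.12), Bbc3, which encodes the cell death protein Puma (0.70 ± 0.14), and Aen (0.69 ± 0.17) were higher as well. In stem organoids the 4 genes called were all higher in KO, Phlda3 (0.80 ± 0.13), Fas (0.72 ± 0.16), Trp53inp1 (0.65 ± 0.15) and Btg2 (0.58 ± 0.15), with a median of 0.32 over the 22. Of all genes tested, 6.57% were called in stem organoids (3.48% higher, 3.09% lower). The count of 14 in differentiated organoids was 6 without KO differentiated library 1, 7 without WT differentiated library 1 and 9 without WT differentiated library 3, and the count of 4 in stem organoids became 7 when KO differentiated library 1 was left out, 2 for KO stem library 2 and 1 for KO stem library 1 or WT stem library 2. On withdrawal 12 of the 22 rose and 1 fell in KO, and 11 rose and 5 fell in WT. The totals called were near or below the 67.7% of all genes called in KO and 72.2% in WT. By direction, 34.1% of all genes were higher and 33.6% lower in KO, and 36.3% and 35.9% in WT. More of the listed targets thus rose than fell. This list, too, was drawn up with earlier results known and was not tested as a set. Among the called targets were Gdf15 (-1.90 in KO, -2.12 in WT), Pmaip1 (1.80 in KO, 1.69 in WT), Btg2 (1.68 in KO, 1.83 in WT) and Trp53inp1 (1.25 in KO, 1.37 in WT). Fas alone differed in its response (-0.83 ± 0.22), a call lost without KO stem library 1, 2 or 3, KO differentiated library 1 or 2, WT stem library 2 or 3, or WT differentiated library 1 or 3. The response differed for 8.7% of all genes.

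All 24 E2F target genes of S phase fell on withdrawal in both genotypes, with medians of -2.23 in KO and -2.85 in WT, and so did all 10 markers of proliferation and mitosis (-3.52 in KO, -4.31 in WT). Of all genes tested, 33.6% were called lower in KO and 35.9% in WT. Rrm2, a subunit of ribonucleotide reductase, had log2 differences of -3.66 in KO and -4.14 in WT, followed by Tk1, thymidine kinase (-3.37 in KO, -3.94 in WT), and Cdc45, a replication helicase factor (-3.23 in KO, -3.96 in WT). Between KO and WT differentiated organoids 11 of the 24 were higher and 2, Orc1 (-1.69 ± 0.19) and Pcna (-0.48 ± 0.095), were lower, with Uhrf1 at 0.68 ± 0.13, Mcm2 at 0.57 ± 0.14 and Tyms at 0.56 ± 0.13. The count of 13 was 7 without WT differentiated library 3. Beside it, 27.6% of all genes were called between differentiated organoids (13.8% higher, 13.9% lower in KO). Of the 10 proliferation markers 7 were higher in KO, among them Bub1 (0.68 ± 0.12), Ccnb1 (0.65 ± 0.14), Plk1 (0.58 ± 0.17) and Birc5 (0.57 ± 0.18). That count was 2 to 4 with any 1 library left out other than KO differentiated library 1 or WT stem library 1. The 10 markers summed to 4291, 6674 and 6642 normalized counts in KO differentiated libraries 1 to 3. In WT differentiated libraries they summed to 4292, 4391 and 4134. KO differentiated library 1 thus lay at the WT level in this sum, and the other KO differentiated libraries lay above it.

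In stem organoids the median of the E2F targets was -0.31 and that of the proliferation markers -0.28, against -0.040 over all genes, with Orc1 (-0.76 ± 0.19) and Pcna (-0.40 ± 0.095) called lower in KO. Of all genes tested, 6.57% were called in stem organoids (3.48% higher, 3.09% lower). The count of 2 E2F targets was 0 or 1 without KO stem library 1, 2 or 3, KO differentiated library 2, WT stem library 1 or 2 or WT differentiated library 1, and 6 without WT stem library 3. The 24 E2F targets summed to 200270, 153634 and 143749 normalized counts in WT stem libraries 1 to 3, against 127635 to 140368 in KO stem libraries. WT stem library 1, which also held the most fibroblast and muscle marker counts, was thus the highest. By limma, edgeR and DESeq2 0 of the 10 proliferation markers were called in stem organoids, 2 had an unadjusted limma p under 0.05, and 2 were called, both lower in KO, without KO differentiated library 1. Top2a and Mki67, the 2 most abundant of these markers, had log2 differences of -0.33 ± 0.13 and -0.43 ± 0.24. The fall on withdrawal was less steep in KO for 15 of the 24 E2F targets, led by Uhrf1 (1.09 ± 0.19), Mcm5 (0.93 ± 0.20), Mcm2 (0.88 ± 0.20) and Mcm4 (0.86 ± 0.20), and for 3 of the 10 proliferation markers, Ccnb1 (0.98 ± 0.20), Bub1 (0.90 ± 0.17) and Top2a (0.71 ± 0.19). Over all genes tested, the response differed for 8.7% (5.12% higher, 3.58% lower in KO). The count of 3 was 9 without KO differentiated library 1 and 1 without WT differentiated library 3, and the count of 15 ranged between 2 and 9 without KO stem library 1, 2 or 3, KO differentiated library 2 or 3, WT stem library 2 or WT differentiated library 1 or 3. The comparisons of differentiated organoids and of the 2 responses share the same differentiated libraries.

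**Figure D4:**
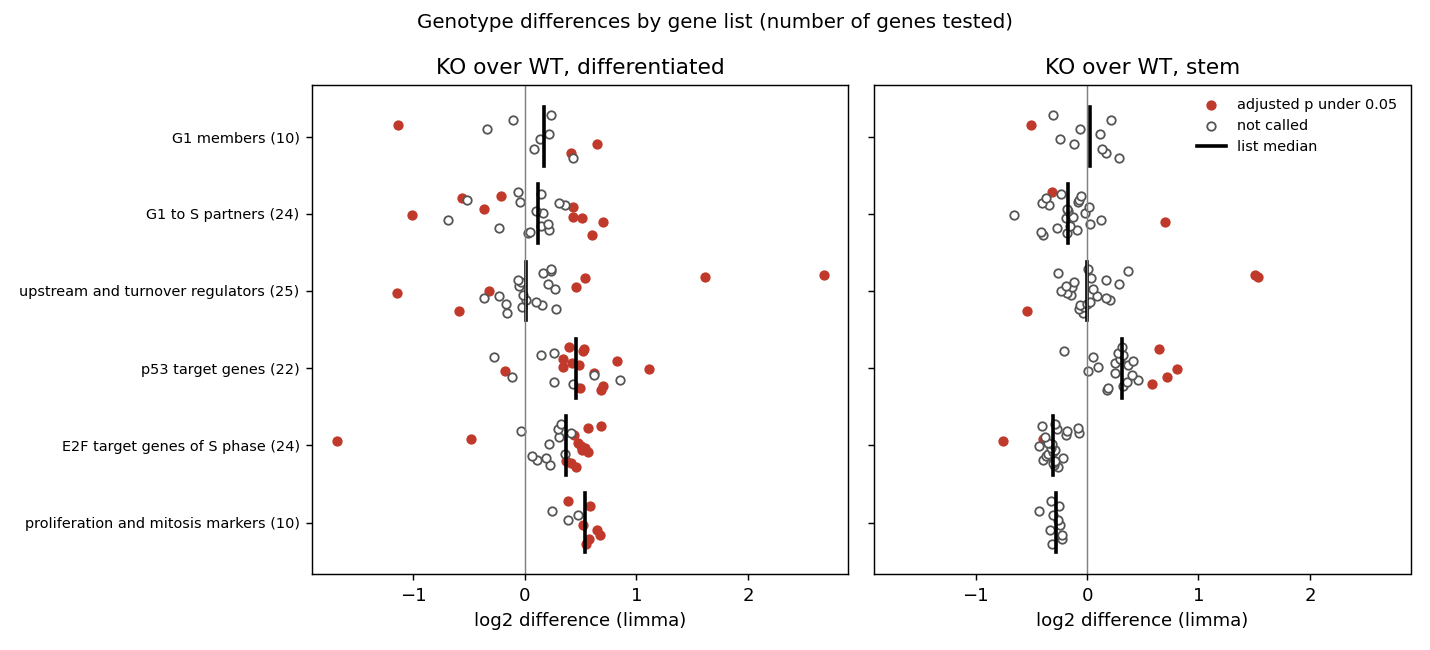
log2 differences of KO over WT from limma for each tested gene of 6 lists, in differentiated organoids on the left and stem organoids on the right; red points had an adjusted p under 0.05, open points did not, and black lines are list medians. The p53 target genes have medians of 0.46 differentiated and 0.32 stem, while the E2F targets have 0.37 differentiated and -0.31 stem.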

How the data were processed

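The authors deposited normalized counts (a signal made from gene counts) of 48795 Ensembl genes in 12 libraries, and 22677 genes were at 0 throughout. The submitters' processing notes list the build GRCm38 and the tools DESeq2 1.18.1, RSEM 1.2.11 and Bowtie2, the last without a version. The role of each tool, the annotation, any filter and the strand setting are not given in the sources used here, so reads of overlapping genes on opposite strands could not be told apart, and normalization to a common scale hides a change in total RNA per cell. Within a tolerance of 0.05 of a read, 100% of values were whole multiples of 1 step per library (0.539 to 2.27), so reads were recovered by division.

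Genes with at least 10 normalized counts in at least 3 libraries (14856) were fitted on log2(normalized count + 1) with limma 3.58.1 (R 4.3.3, trended variance) over 4 group means, and p-values were adjusted by Benjamini and Hochberg over all of them. Fold changes of low genes are understated on this scale. Called means an adjusted p under 0.05. The repeats were edgeR 4.0.16 and DESeq2 1.42.0 on recovered reads, TMM, recomputed size factors and quantile normalization, no filter, a mean of at least 50, pseudocounts of 0.5 and 5, the groups compared alone, the library number as a block, each library left out and, chosen after seeing the data, 2 sets of libraries left out. Steps were tested on simulated data. Same-numbered libraries deviated together in KO stem and KO differentiated organoids (r = 0.286, 0.191 and 0.256), so numbers were taken to pair these 6, from the data alone. Other pairs of groups did not pass 0.1 throughout, so the block over all groups pairs KO with WT libraries by numbers that the data do not tie.

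Gene positions and exon lengths came from GENCODE vM21 (GRCm38), and promoters from RefSeq (GRCm38.p6), where 10 promoters matched 7 genes. All 10 G1 genes are described. From each other list, at most 4 called genes with the largest change per comparison were named, or the 2 most abundant where none was called. Similar genes were the 3 with the highest Pearson's r among protein-coding genes with a mean of at least 50. Predicted genes and those with Rik or clone names were left out. Part of that result for Cdkn2c is not reported here. The G1 genes, lists and motifs were chosen with earlier results of these data known.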

Additional observations from a re-analysis of the deposited data

Results flagged for a closer look

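For 2 of the 10 genes the response to Wnt-3A withdrawal differed between genotypes. The log2 response of Cdk4 was -0.066 in KO and -0.83 in WT, a difference of 0.76 ± 0.18 (limma interaction term, adjusted p = 0.0301), and that of Cdkn1c was 0.52 in KO and 1.15 in WT, a difference of -0.63 ± 0.17 (adjusted p = 0.0462). Cdk4 had 10023 to 13445 normalized counts in KO differentiated libraries, against 6517 to 7464 in WT differentiated libraries, while KO stem and WT stem libraries overlapped. Without WT stem library 1 and KO stem library 3, the libraries highest in fibroblast transcripts, the difference was 0.63 for Cdk4 (adjusted p = 0.0518) and -0.57 for Cdkn1c (adjusted p = 0.106), and neither was called. The cause was not tested.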

How the results depend on the processing

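Of the 20 calls of the 10 genes, none changed sign, and 469 of 514 repeated values kept the call while 45 lost it. Over all 50 differences, 1170 of 1270 values kept sign and side of the threshold. In stem organoids, where 1 gene was called between KO and WT, edgeR called 0 and so did the groups compared alone (2 genes each at an unadjusted p under 0.05), DESeq2 called 2, and leaving out each library gave 0 to 2. In differentiated organoids the count of 3 became 5 with the replicate block over all groups (Ccnd1 and Cdkn1b added) and 5 without WT stem library 1 and KO stem library 3 (Ccnd1 and Cdkn1a added), and the 2 differing responses became 3 with DESeq2, quantile normalization or the replicate block over all groups, 1 without the filter, 1 with edgeR, 1 with the block within genotype, 0 without those 2 libraries and 0 to 2 with each library left out. Under the replicate block Cdk6 was also called on withdrawal in KO (0.17, limma adjusted p = 0.0450), and within genotype, where numbers pair KO libraries, no withdrawal call in KO changed.

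Signs turned for values that were not called. With each library left out, the log2 difference of KO over WT stem spanned -0.19 to 0.018 for Cdk4, -0.17 to 0.034 for Cdkn1b and -0.076 to 0.39 for Cdkn2b, that of withdrawal in KO -0.12 to 0.14 for Ccnd2 and -0.20 to 0.0097 for Cdk4, and that between responses -0.043 to 0.32 for Ccnd1 and -0.16 to 0.032 for Ccnd3. Without WT stem library 1 and KO stem library 3, KO over WT stem was 0.016 for Cdk4 and -0.025 for Cdkn2b, and the difference between responses -0.19 for Ccnd1. Without the 4 libraries numbered 1, Cdkn2b was -0.070 for KO over WT stem, Ccnd2 0.050 on withdrawal in KO and Ccnd1 -0.011 between responses. Quantile normalization turned Cdkn2b for KO over WT differentiated (0.011) and Ccnd2 on withdrawal in KO (0.095). The causes were not tested.

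Over all genes, 976 calls between KO and WT stem became 1984 with DESeq2, 297 with the groups compared alone, 1486 with the block and 363 to 1414 with each library left out, and their share higher in KO was 52.97%, against 67.3% with edgeR and 42.3% with DESeq2. The 1292 differing responses became 750 without the filter, 2442 with DESeq2 and 2141 with the block, and 342 at fewest with a library left out, and the 4103 calls between differentiated organoids became 2233 at fewest. With 3 libraries a group, Cdkn2c after withdrawal rested on 34 to 148 reads.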
